A study of Homo sapiens with 20 samples.

Results

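The genes described here are 10 genes of the interleukin 6 (IL-6) cytokine family and its signalling chain, namely the ligands IL6, IL11, LIF and CLCF1, the receptor chains IL6R, IL6ST, LIFR and OSMR, the feedback inhibitor SOCS3 and the transcription factor STAT3. They were chosen by symbol from the 20314 genes of the deposited table, with earlier results of these data known, and all 10 had enough counts to be tested. The libraries came from the osteosarcoma line U2-OS, a human bone tumour line, with 5 libraries in each of 4 groups. The study asked which genes are expressed in 2 successive phases of NF-κB activity after DNA double-strand breaks, and whether depletion of IκBα, the NF-κB inhibitor encoded by NFKBIA, has similar effects without irradiation. The groups were untreated cells, cells 1.5 h after irradiation (IR) with 20 Gy (the first phase, labelled 90 minutes), cells 7 days after the same dose (the second phase, in senescent cells), and non-irradiated cells with an shRNA-mediated NFKBIA knockdown. All groups were grown in the same medium with serum. According to the study's methods, the shRNA lines were made by lentiviral transduction and clonal puromycin selection and were usually induced with doxycycline, with scrambled shRNA lines as controls. No library is labelled as a scrambled control, and the labels name neither vector nor doxycycline for the untreated cells, so that the knockdown cannot be told apart from the selection and the induction.

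Cytokines of this family are secreted and share gp130, the signalling chain encoded by IL6ST. IL-6 and IL-11 first bind a private receptor chain (IL6R for IL-6), whereas LIF and CLCF1 signal through gp130 paired with LIFR, and oncostatin M through gp130 paired with LIFR or OSMR. The receptors activate JAK kinases, which phosphorylate STAT3, and STAT3 induces SOCS3, which binds gp130 and shuts the signal down. IL6 is a textbook target of NF-κB and a component of the senescence-associated secretory phenotype (SASP), while LIF, IL-11 and oncostatin M are known for their effects on bone cells.

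The promoters of 8 of the 10 genes were found in the RefSeq table used here (build GRCh38.p14), whereas LIF and CLCF1 had no entry. The 250 bases in front of the start site are shown for IL6, IL11 and IL6R, the 3 genes that were called higher 7 days post-IR, with matches to the searched motifs in capitals.
IL6 (chr7:22726950-22727199, plus strand): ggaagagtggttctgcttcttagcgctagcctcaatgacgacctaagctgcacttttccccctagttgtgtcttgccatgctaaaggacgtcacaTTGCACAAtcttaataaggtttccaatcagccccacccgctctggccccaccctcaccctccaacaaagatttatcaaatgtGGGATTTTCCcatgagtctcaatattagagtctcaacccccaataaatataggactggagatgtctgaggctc
IL11 (chr19:55370464-55370713, minus strand): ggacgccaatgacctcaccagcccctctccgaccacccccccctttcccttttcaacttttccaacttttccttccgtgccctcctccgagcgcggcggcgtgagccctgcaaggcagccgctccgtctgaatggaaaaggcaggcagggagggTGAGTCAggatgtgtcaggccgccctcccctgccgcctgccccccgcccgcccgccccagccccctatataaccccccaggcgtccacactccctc
IL6R (chr1:154405093-154405342, plus strand): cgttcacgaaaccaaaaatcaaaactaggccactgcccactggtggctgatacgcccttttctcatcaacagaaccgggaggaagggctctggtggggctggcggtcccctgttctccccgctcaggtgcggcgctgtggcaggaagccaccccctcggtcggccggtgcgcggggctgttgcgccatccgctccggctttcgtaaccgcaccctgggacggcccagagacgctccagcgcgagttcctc
The capitals in the IL6 window mark a match to the NF-κB consensus at 73 to 64 bases before the start, and a match to the C/EBP motif TTGCNNAA at 155 to 148 bases before it. In the IL11 window they mark a match to the AP-1 motif TGANTCA at 96 to 90 bases before the start. The IL6R window held no match to these motifs or to the STAT motif TTCNNNGAA. All motifs were searched on both strands, and the printed matches do not overlap. Among 35116 windows of this length, 9.96% held the NF-κB consensus, 9.05% the C/EBP motif, 6.57% the AP-1 motif and 6.57% the STAT motif. Of the other genes, IL6ST had an NF-κB match, OSMR a C/EBP match and LIFR STAT and C/EBP matches. The windows of SOCS3 and STAT3 held none. A match describes letters in these windows and was not tested as a binding site.

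The libraries held between 22535659 and 40390961 counts on genes, and the lowest total belonged to untreated replicate 5. Log2 CPM (counts scaled to the effective library size) of pairs of libraries correlated with r of 0.970 to 0.996 in the untreated group and of 0.994 to 0.997 in the other groups, across genes, which are not independent replicates. Untreated replicates 4 and 5 stood apart most, and values without them are given where they end a call or move a named value most. The libraries were run in lanes that follow the groups, and no lane held untreated libraries together with those at 7 days or with the knockdown. NFKBIA itself checked the labels. Its level was 28.6, 23.5, 27.4, 35.0 and 42.0 CPM in untreated replicates 1 to 5 and 13.0, 11.2, 12.1, 12.0 and 12.4 CPM in the knockdown, so that all knockdown libraries lay below all untreated ones (log2 fold change -1.36 ± 0.11 SE, adjusted p = 4.87e-09). NFKBIA was at 82.1 ± 5.27 CPM (SD, n = 5) 1.5 h post-IR and at 30.8 ± 1.59 CPM 7 days post-IR (log2 fold change -0.02, or -0.54 in a model with lane, adjusted p = 0.0207). The 9 osteoblast lineage markers summed to 4005 to 4751 CPM per untreated library and to 2756 to 3179 CPM at 7 days, with COL1A1, the main collagen of bone, at a mean of 1974 CPM in untreated cells and 617 CPM in the knockdown. Of the 7 osteoblast markers tested, SPARC was called lower and ALPL and SPP1 higher at 7 days, so that the sum does not stand for each of them. IBSP, a bone matrix protein, had at most 1 count in any library, and SP7, an osteoblast transcription factor, at most 3. The 7 leukocyte markers summed to 2.46 to 8.51 CPM in untreated cells, 2.50 to 3.20 CPM at 1.5 h, 22.9 to 28.0 CPM at 7 days and 2.44 to 3.53 CPM in the knockdown. CD68, a lysosomal protein, made up most of this sum at 7 days (23.2 ± 1.67 CPM), whereas PTPRC, the pan-leukocyte marker CD45, was at 1.34 ± 0.233 CPM (against 1.05 ± 0.331 CPM untreated) and LYZ had at most 4 counts. CD68 overlaps another transcript on its own strand. Both tested leukocyte markers, CD68 and PTPRC, were called higher at 7 days than at 1.5 h and than in the knockdown. Over all genes 16.8% and 15.8% were called higher in these contrasts, in which IL6 and IL6R were also called higher. Against untreated cells 1 of 2 was called higher at 7 days, where 16.7% of all genes were. Without untreated replicate 5, 3 markers passed the filter on low counts in place of 2, and 3 of 3 were called higher. The 2 counts cover different markers and cannot be set against each other. The part of other cell types in the results below was not tested.

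More of these genes were called at 7 days than at 1.5 h post-IR, as was the case over all genes. A gene was called when its log2 fold change exceeded 0.5 in size with an adjusted p under 0.05 in a quasi-likelihood test over all 14992 genes tested. In the first phase, IL11 was called higher and SOCS3 lower, that is 2 of 10 genes, where 3.66% of all genes tested were called (2.08% higher and 1.57% lower). In the second phase, IL6, IL11 and IL6R were called higher and CLCF1 and SOCS3 lower, that is 5 of 10 genes, where 31.1% of all genes were called (16.7% higher and 14.4% lower). With NFKBIA knockdown, IL6R was called higher and no gene lower, where 12.7% of all genes were called (5.18% higher and 7.53% lower). The median log2 fold change of the 10 genes was 0.25 at 1.5 h, 0.36 at 7 days and 0.08 in the knockdown, against -0.03, 0.01 and -0.01 over all genes. At an adjusted p under 0.05 with any fold change, 6, 9 and 4 of the 10 genes passed, against 21.3%, 64.2% and 40.5% of all genes. These 3 comparisons share the untreated libraries.

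Between the irradiated groups, IL6 and IL6R were called higher and CLCF1 and SOCS3 lower at 7 days than at 1.5 h, where 29.3% of all genes were called (16.8% higher and 12.6% lower). Against the knockdown, IL6, IL11 and IL6R were called higher and SOCS3 lower at 7 days, where 25.7% of all genes were called (15.8% higher and 9.89% lower). At an adjusted p under 0.05 with any fold change, 8 and 9 of the 10 genes passed in these comparisons, against 60.9% and 57.4% of all genes. It was also counted how often all libraries of a group lay on one side of all libraries of the other, a criterion that more of all genes tested met than were called. At 1.5 h this held for 4 genes above and 1 below the untreated libraries, against 7.42% and 4.85% of all genes (12.3% in either direction). At 7 days it held for 6 genes above and 2 below, against 24.4% and 20.4% of all genes (44.8% in either direction). In the knockdown it held for 1 gene above, IL11, and none below, against 12.3% and 11.8% of all genes (24.1% in either direction). From 1.5 h to 7 days it held for 5 above and 3 below, against 31.9% and 29.9% (61.8% in either direction), and from the knockdown to 7 days for 6 above and 3 below, against 30.6% and 30.1% (60.7% in either direction).

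**Figure D1:**
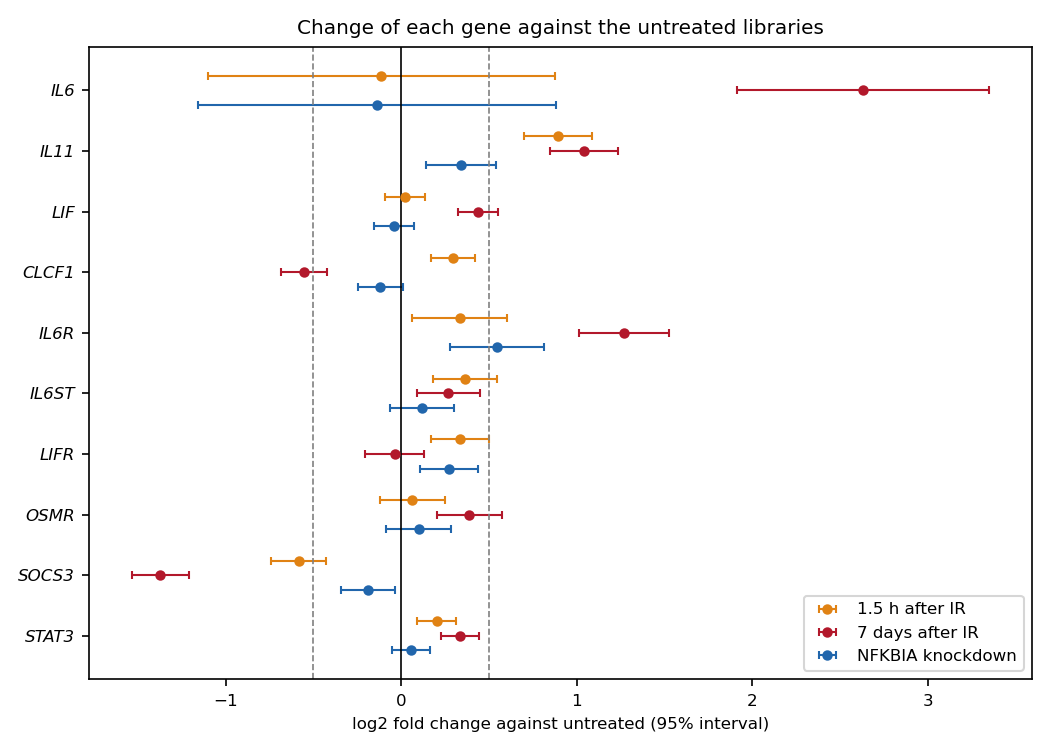
Log2 fold change of each gene against the untreated libraries with its 95% interval from the quasi-likelihood test, at 1.5 h and 7 days post-IR and with NFKBIA knockdown (n = 5 per group); dashed lines mark the threshold of 0.5. IL6 at 7 days lies farthest to the right (2.63) and SOCS3 at 7 days farthest to the left (-1.37), while the intervals of IL6 at 1.5 h and in the knockdown are the widest.

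Among the ligands, IL6 had the lowest counts and was called higher at 7 days. IL6, the founding member of the family, had 5, 4, 10, 11 and 15 counts in untreated replicates 1 to 5, or 0.148, 0.111, 0.250, 0.362 and 0.713 CPM. At 7 days post-IR it had 53, 49, 55, 79 and 48 counts, or 1.55, 1.61, 1.59, 2.404 and 1.72 CPM. Each library at 7 days was above each untreated library, and replicate 4 was the highest. The fitted log2 fold change was 2.63 (95% interval 1.91 to 3.35, adjusted p = 1.04e-06), a 6.19-fold higher level. Leaving out each library in turn gave log2 fold changes between 2.398 and 3.01. When lane was added to the model the value was 1.43 and was no longer called (adjusted p = 0.172). In that model, untreated replicate 5, with the highest IL6 level of its group, is the only untreated library that shares a lane with another group.

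At 1.5 h post-IR, IL6 was at 0.406, 0.0865, 0.337, 0.146 and 0.312 CPM in replicates 1 to 5, overlapping with the untreated libraries. The log2 fold change was -0.11 with a 95% interval of -1.10 to 0.87, and each of these libraries had between 3 and 16 counts, so that a change within this interval was not detectable at this depth. In the knockdown IL6 was at 0.147, 0.425, 0.0897, 0.220 and 0.425 CPM, again overlapping with the untreated libraries (log2 fold change -0.14, 95% interval -1.16 to 0.88). In the model with lane these values were -1.33 (adjusted p = 0.134) and -2.23 (adjusted p = 0.178). Compared directly with the other groups, IL6 at 7 days was higher than at 1.5 h by 2.74 on the log2 scale (adjusted p = 4.86e-07) and higher than in the knockdown by 2.77 (adjusted p = 8.77e-07). The former was 2.74 within lane 4, which held 2 libraries of each of these time points. The latter was 3.66 in the model with lane, and 3.65 within lane 5 against knockdown replicate 1 alone.

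IL11, a ligand that signals through gp130 pairs, was the ligand that rose in both phases. It was at 6.35, 5.78, 7.46, 7.68 and 5.04 CPM in the untreated libraries, at 13.3, 11.7, 11.3, 12.0 and 12.0 CPM at 1.5 h, and at 12.6, 14.5, 11.6, 14.4 and 13.9 CPM at 7 days. The untreated libraries overlapped with neither irradiated group, whereas the irradiated groups overlapped with each other. The log2 fold change was 0.89 ± 0.09 SE at 1.5 h (adjusted p = 5.78e-07) and 1.04 ± 0.09 SE at 7 days (adjusted p = 3.81e-09). From 1.5 h to 7 days the difference was 0.15 with a 95% interval of -0.04 to 0.33, and it was not called. Both calls held in the model with lane, at 1.27 and 1.44. In the knockdown, IL11 was at 8.12, 8.64, 8.61, 7.84 and 7.90 CPM, all above the highest untreated library, by 0.34 on the log2 scale (adjusted p = 0.00734), which is under the threshold on the fold change. In the model with lane this value was 0.73 and was called (adjusted p = 0.0475). IL11 at 7 days was higher than in the knockdown by 0.70 (adjusted p = 1.24e-06), and by 0.70 within lane 5, where 3 libraries at 7 days stand against knockdown replicate 1 alone.

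LIF, which acts through LIFR and gp130, was the most abundant of the ligands. It was at 112, 105, 115, 99.9 and 120 CPM in the untreated libraries and at 145, 149, 152, 154 and 147 CPM at 7 days. The groups did not overlap, and the log2 fold change of 0.44 (95% interval 0.32 to 0.55, adjusted p = 5.91e-07) passed the test but not the threshold on the fold change. Its mean was 112 ± 7.82 CPM at 1.5 h and 107 ± 4.51 CPM in the knockdown, with log2 fold changes of 0.02 (95% interval -0.09 to 0.14) and -0.04 (95% interval -0.16 to 0.07). In the model with lane the value at 7 days was 0.21 (adjusted p = 0.158), while within lane 4 LIF was higher at 7 days than at 1.5 h by 0.32.

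CLCF1, a ligand that signals through LIFR and gp130, was called lower at 7 days. It was at 13.2, 14.5, 14.0, 13.7 and 14.7 CPM in the untreated libraries, at 18.3, 16.9, 16.4, 16.2 and 18.2 CPM at 1.5 h, and at 8.66, 10.9, 8.85, 10.1 and 9.13 CPM at 7 days. All libraries at 1.5 h lay above and all at 7 days below the untreated ones. At 1.5 h the log2 fold change was 0.30 (adjusted p = 0.00144), under the threshold, and 0.22 in the model with lane (adjusted p = 0.137). At 7 days CLCF1 fell by 0.56 on the log2 scale (adjusted p = 1.26e-07). The difference between the times was -0.85 (adjusted p = 1.66e-10) and -0.84 within lane 4. In the knockdown CLCF1 was at 12.9 ± 0.247 CPM (log2 fold change -0.12, 95% interval -0.25 to 0.01). CLCF1 overlaps RAD9A on the other strand and another transcript on its own strand, and whether the counting used strand is not given in the sources used here. IL6 and LIF also overlap transcripts of the other strand, and IL11 overlaps none.

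**Figure D2:**
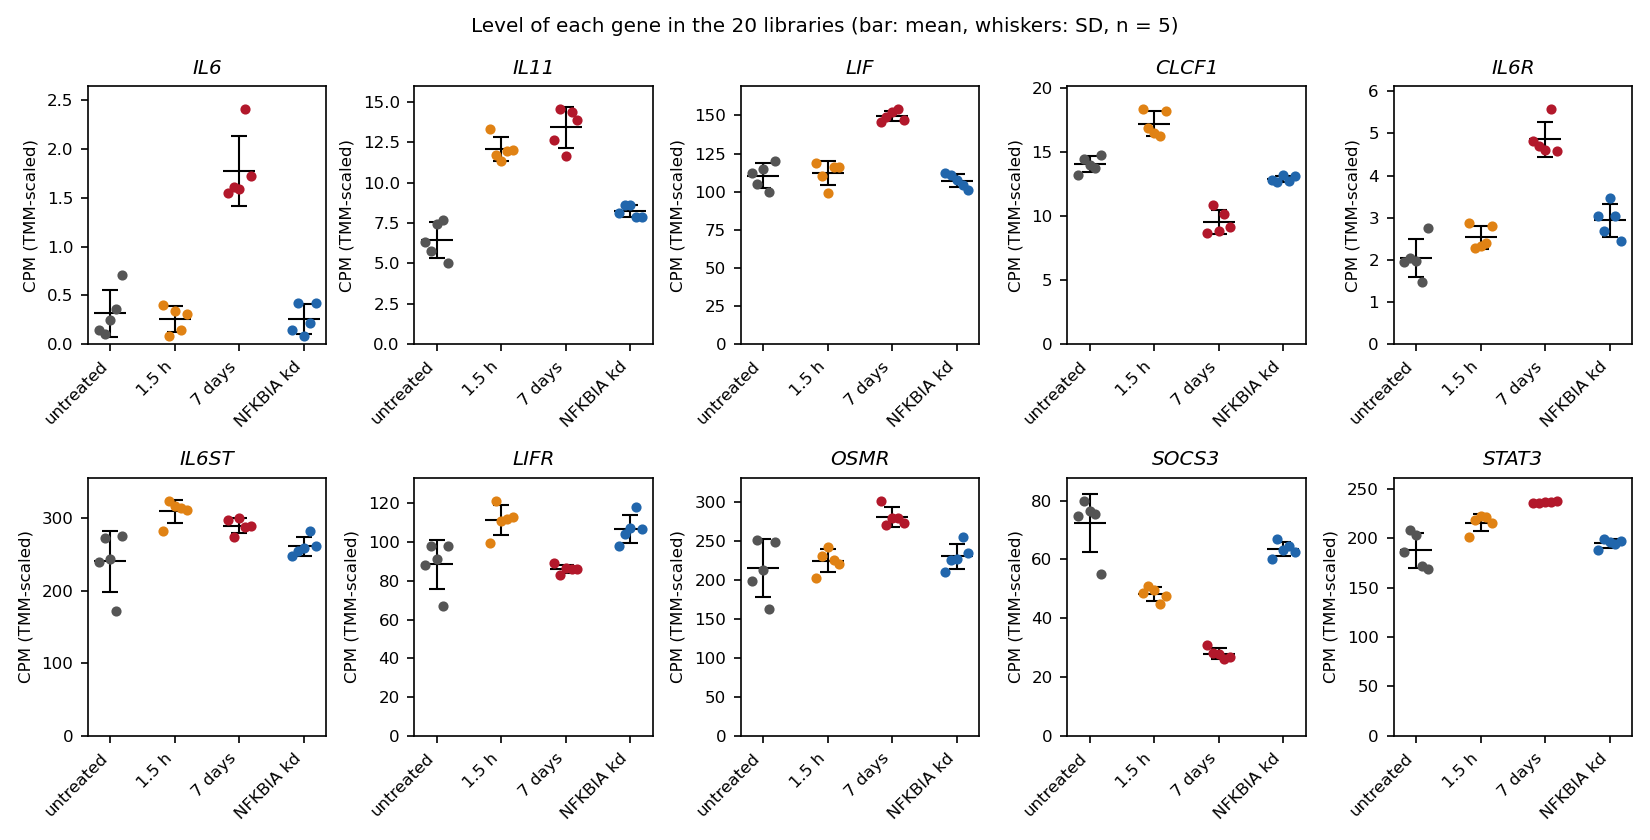
Level of each gene in CPM (linear axis from 0, scaled by TMM) in the 20 libraries, 5 per group; points are libraries, the long bar is the mean and the whiskers are the SD. IL6 and IL6R stand clear of the other groups at 7 days post-IR, IL11 is raised at both times, and SOCS3 is lower at 7 days (26.0 to 30.9 CPM) than in any other group.

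Of the 4 receptor chains IL6R, IL6ST, LIFR and OSMR, IL6R was the one that was called. IL6R, the chain that binds IL-6, was at 1.96, 2.05, 1.98, 1.48 and 2.76 CPM in the untreated libraries and at 4.83, 4.70, 4.61, 5.57 and 4.58 CPM at 7 days. All libraries at 7 days exceeded all others, and the log2 fold change was 1.27 ± 0.12 SE (adjusted p = 1.46e-08), a 2.41-fold higher level. In the model with lane it was 0.73 (adjusted p = 0.0423), and IL6R was higher at 7 days than at 1.5 h by 0.93 (adjusted p = 6.94e-07), by 0.85 within lane 4. At 1.5 h IL6R was at 2.54 ± 0.278 CPM, overlapping with the untreated libraries (log2 fold change 0.33, adjusted p = 0.0716).

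In the knockdown IL6R was at 3.03, 2.70, 3.47, 3.04 and 2.44 CPM, where the 2 lowest libraries overlapped with untreated replicate 5. The log2 fold change of 0.55 ± 0.13 SE (adjusted p = 0.00209) was called. The call was lost without untreated replicate 4 (0.44) and without knockdown replicate 3 (0.48), and the model with lane gave 0.03. IL6R at 7 days was higher than in the knockdown by 0.72 (adjusted p = 2.30e-05), and by 0.69 against the single knockdown library of lane 5. IL6R overlaps an antisense gene.

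The other receptor chains were expressed at high levels throughout and none was called. IL6ST, the common chain gp130, was at 240, 273, 243, 172 and 276 CPM in the untreated libraries, at 283, 324, 317, 314 and 311 CPM at 1.5 h and at 298, 274, 300, 288 and 289 CPM at 7 days. Untreated replicate 4 was the lowest library, and the groups at 1.5 h and untreated did not overlap. The log2 fold change was 0.36 at 1.5 h (adjusted p = 0.00514), 0.27 at 7 days (adjusted p = 0.0107) and 0.12 in the knockdown (95% interval -0.06 to 0.30). Without untreated replicate 4 these values were 0.25, 0.14 and -0.00135. In the model with lane they were 0.16, 0.03 and -0.20, with adjusted p of 0.434, 0.912 and 0.581.

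LIFR, the chain shared by LIF and CLCF1, was at 88.1, 98.2, 91.5, 66.9 and 97.8 CPM in untreated cells and at 99.8, 121, 111, 112 and 113 CPM at 1.5 h, with no overlap (log2 fold change 0.33, adjusted p = 0.00508). At 7 days it was at 86.2 ± 2.17 CPM, within the untreated range (log2 fold change -0.04, 95% interval -0.20 to 0.13), and lower than at 1.5 h by a log2 difference of -0.37 (adjusted p = 0.000397). In the knockdown LIFR was at 107 ± 7.25 CPM (log2 fold change 0.27, adjusted p = 0.00927). Without untreated replicate 4, the lowest library, the LIFR values were 0.24 at 1.5 h, -0.15 at 7 days (adjusted p = 0.0251) and 0.17 in the knockdown. The model with lane gave 0.18 at 1.5 h (adjusted p = 0.335), -0.21 at 7 days (adjusted p = 0.367) and -0.0253 in the knockdown (adjusted p = 0.946). OSMR, the chain for oncostatin M, was at 199, 252, 213, 162 and 249 CPM in untreated cells and at 301, 270, 280, 280 and 273 CPM at 7 days, with no overlap and a log2 fold change of 0.39 (adjusted p = 0.000737). Without untreated replicate 4 this was 0.27 (adjusted p = 0.00202), and in the model with lane 0.21 (adjusted p = 0.396). At 1.5 h and in the knockdown the OSMR values were 0.06 (95% interval -0.12 to 0.25) and 0.10 (95% interval -0.08 to 0.29). LIFR overlaps an antisense gene and OSMR overlaps RICTOR on the other strand.

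Downstream of the receptors, SOCS3 was called lower post-IR and STAT3 was not called. SOCS3, the feedback inhibitor, was at 74.7, 79.9, 76.5, 75.6 and 54.9 CPM in the untreated libraries, at 48.5, 50.9, 49.6, 44.8 and 47.6 CPM at 1.5 h, and at 30.9, 28.1, 27.9, 26.0 and 27.0 CPM at 7 days. The 3 groups did not overlap, and untreated replicate 5 was the lowest of its group. At 7 days SOCS3 fell by 1.37 on the log2 scale (SE 0.08, adjusted p = 2.36e-12), to 0.386 of the untreated level. It was also lower at 7 days than at 1.5 h (log2 difference -0.79, adjusted p = 1.51e-08) and than in the knockdown (-1.18, adjusted p = 3.13e-11). These differences were -0.66 within lane 4 and -1.17 against the single knockdown library of lane 5, and the value against untreated cells was -0.79 in the model with lane (adjusted p = 2.22e-06).

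At 1.5 h the log2 fold change of SOCS3 was -0.58 ± 0.08 SE (adjusted p = 9.04e-06). Within lane 3, where 3 libraries at 1.5 h can be set against untreated replicate 5 alone, it was -0.15, and in the model with lane -0.14 (adjusted p = 0.113). Without untreated replicate 5 it was -0.67 (adjusted p = 4.30e-10). The early value was thus small against the 1 untreated library of lane 3 and larger against the 4 of lane 2. In the knockdown SOCS3 was at 60.2, 67.0, 63.2, 64.5 and 62.5 CPM, between untreated replicate 5 and the other untreated libraries (log2 fold change -0.19, adjusted p = 0.0483). This small difference was -0.29 without untreated replicate 5 and 0.37 in the model with lane (adjusted p = 0.0259).

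STAT3, the transcription factor of the pathway, was at 186, 208, 203, 171 and 169 CPM in untreated cells and at 236, 235, 237, 236 and 238 CPM at 7 days, with no overlap. The log2 fold change was 0.33 (95% interval 0.22 to 0.44, adjusted p = 1.10e-05), under the threshold. At 1.5 h STAT3 was at 201, 218, 222, 222 and 215 CPM (log2 fold change 0.20, adjusted p = 0.00905), and in the knockdown at 195 ± 4.25 CPM (0.05, 95% interval -0.06 to 0.16). In the model with lane STAT3 was 0.34 higher at 1.5 h and 0.45 higher at 7 days. These are transcript levels, and phosphorylation of STAT3 was not measured in these libraries. Neither SOCS3 nor STAT3 overlaps another gene. In bulk RNA a lower level in all cells and fewer expressing cells cannot be told apart, which holds for each gene described here.

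By an exact permutation test on each gene alone, the calls at 7 days and those at 1.5 h had the two-sided p of 0.00794, the smallest that 5 libraries against 5 can give. IL6R in the knockdown had p = 0.0238 in the same exact test.

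Levels of different genes were compared per length, as CPM per kb, with the gene lengths of the deposited table. In untreated cells OSMR (30.0), LIF (27.8), SOCS3 (26.5), IL6ST (25.9) and STAT3 (21.3 CPM per kb) formed the upper group, and each of them overlapped with its neighbour in this order. LIFR (7.46) and CLCF1 (7.06) overlapped with each other and lay apart from those above, followed by IL11 (2.42), which was apart from both sides. IL6R (0.322) and IL6 (0.117 CPM per kb) were the lowest and overlapped. At 1.5 h SOCS3 (17.7 CPM per kb) lay apart below STAT3 (24.5). At 7 days the order was OSMR (39.2), LIF (37.7), IL6ST (31.2), STAT3 (26.8), SOCS3 (10.3), LIFR (7.26), IL11 (5.02), CLCF1 (4.80), IL6R (0.766) and IL6 (0.654 CPM per kb). Here IL11 overlapped with CLCF1, IL6 with IL6R and LIF with OSMR, and the other neighbours lay apart. In the knockdown the order of the 5 lowest genes was that of untreated cells, with IL6 at 0.0964 CPM per kb. Thus IL6 and its private receptor stayed the least abundant of the 10 transcripts in each group, also where they were highest.

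**Figure D3:**
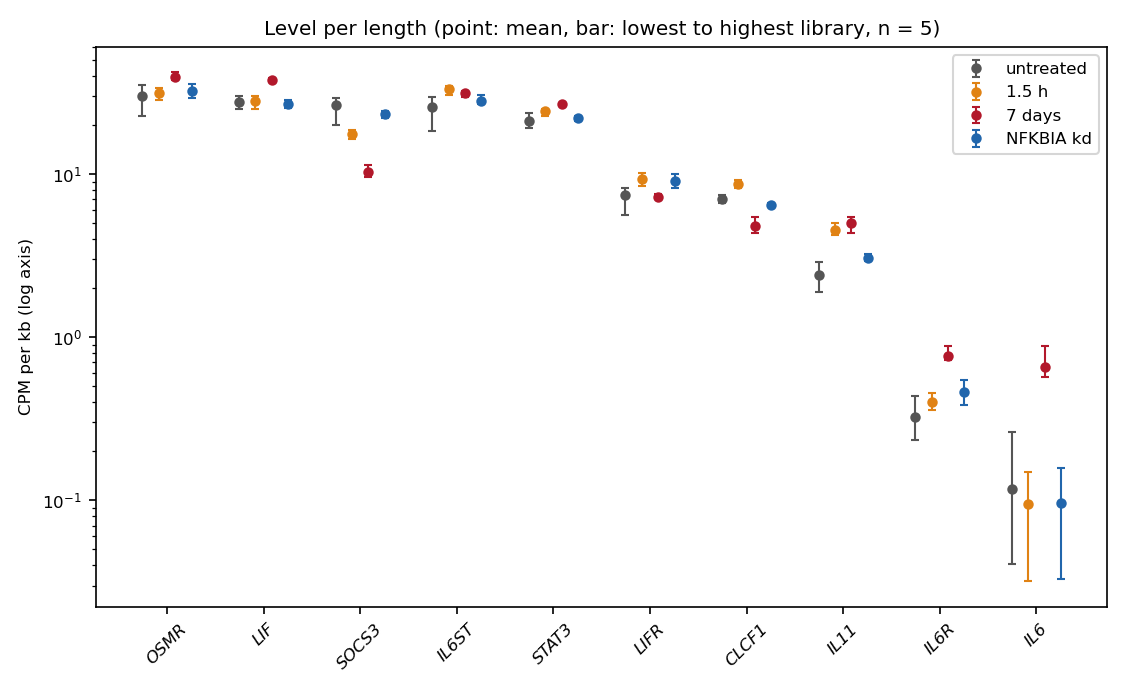
Level of each gene per length (CPM per kb, log axis), ordered by the untreated mean; points are means and bars span the lowest to the highest of 5 libraries per group. IL6 rises from 0.117 to 0.654 CPM per kb at 7 days and reaches the range of IL6R, while SOCS3 drops from the upper group to 10.3 CPM per kb.

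Ratios of paired genes within a library do not depend on the scaling of libraries. They were chosen after the levels had been seen and describe those levels, with 15 exact permutation tests adjusted together. The ratio of SOCS3 to STAT3 per length was 1.24 ± 0.136 in untreated cells, 0.724 ± 0.0480 at 1.5 h, 0.382 ± 0.0254 at 7 days and 1.05 ± 0.0255 in the knockdown (SD, n = 5). The irradiated groups overlapped with no other group (exact p = 0.00794, adjusted p = 0.0108), and the knockdown overlapped with the untreated libraries (exact p = 0.0238, adjusted p = 0.0275). IL6R amounted to 0.0124 ± 0.00137 of IL6ST in untreated cells, 0.0121 ± 0.00192 at 1.5 h, 0.0246 ± 0.00230 at 7 days and 0.0165 ± 0.00230 in the knockdown. The change at 7 days was 1.98-fold (exact p = 0.00794, adjusted p = 0.0108), that in the knockdown 1.32-fold (exact p = 0.0159, adjusted p = 0.0198), and none was detected at 1.5 h (exact p = 0.659). CLCF1 to LIF was 0.254 ± 0.0192 in untreated cells, 0.307 ± 0.0186 at 1.5 h and 0.127 ± 0.0120 at 7 days, each apart from the others (exact p = 0.00794, adjusted p = 0.0108), and 0.241 ± 0.0127 in the knockdown (exact p = 0.214).

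**Figure D4:**
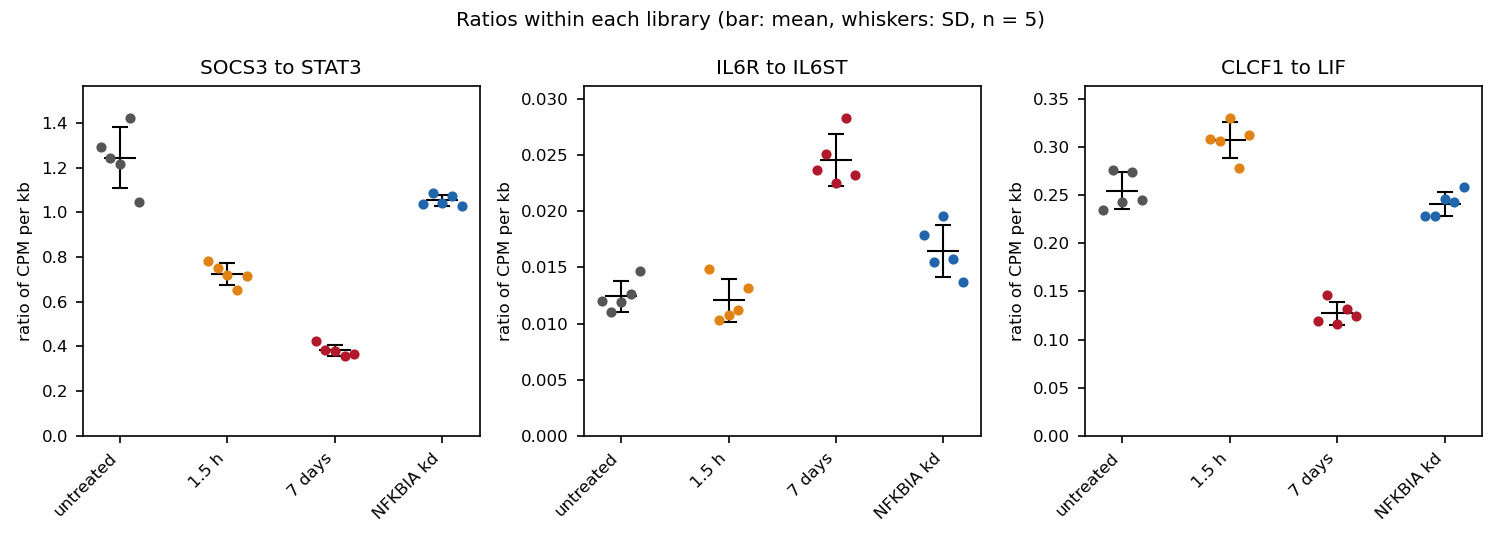
Ratio of SOCS3 to STAT3, IL6R to IL6ST and CLCF1 to LIF in CPM per kb (linear axes from 0) in each of 20 libraries; long bars are means and whiskers the SD of 5 libraries per group. At 7 days post-IR SOCS3 to STAT3 (0.356 to 0.423) and CLCF1 to LIF are at their lowest and IL6R to IL6ST at its highest, without overlap with the other groups.

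Other ligands and receptor chains of the family were read from a list, for which the same shares of called genes over all genes tested apply as above. Of 7 other ligands or ligand subunits 4 could be tested. EBI3, a subunit that pairs with other chains to form IL-27 and IL-35, rose 7 days post-IR from 4.77 ± 0.260 to 27.8 ± 2.23 CPM (log2 fold change 2.55, adjusted p = 1.43e-16) and was at 5.05 CPM at 1.5 h and 6.71 CPM in the knockdown (log2 fold change 0.50, adjusted p = 4.68e-05, not called). The value at 7 days was 2.38 in the model with lane. CTF1, the cytokine cardiotrophin-1, was called lower at 1.5 h (log2 fold change -0.52, adjusted p = 0.00934), but without untreated replicate 5 the value was -0.34 and not called. OSM, IL27 and IL31 were not tested, and CNTF was not called against untreated cells. Without untreated replicate 5, 1 of the 4 tested ligands was called higher and 1 lower at 7 days, and 1 higher in the knockdown. The model with lane called 1 lower at 1.5 h, 1 higher and 1 lower at 7 days, and 1 lower in the knockdown. Of 4 other receptor chains, IL31RA was called higher at 7 days (0.53, adjusted p = 8.36e-05), which was 0.40 without untreated replicate 4 and 0.36 in the model with lane, not called in either. None was called in the other 2 comparisons with untreated cells, although the model with lane called 1 of the 4 lower at 1.5 h, and 1 higher and 2 lower in the knockdown. IL11RA, the private chain of IL-11, was at -0.10, -0.06 and 0.26 on the log2 scale at 1.5 h, at 7 days and in the knockdown.

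Of 8 kinases and signal transducers 1 was called lower at 7 days, where 14.4% of all genes were called lower. Of these genes, among them JAK1, JAK2, TYK2, STAT5A and STAT5B, only GAB1, a docking protein, was called against untreated cells, lower at 7 days (-0.61, adjusted p = 0.00225), and this was -0.38 and not called without untreated replicate 5. The model with lane called 1 of the 8 lower at 1.5 h, 1 at 7 days and 2 in the knockdown. JAK1 was at 0.02, -0.000764 and 0.03 on the log2 scale in the 3 comparisons. STAT5A was higher at 7 days than in the knockdown (0.55, adjusted p = 1.36e-07). The sheddases ADAM10 and ADAM17, which release IL6R from the cell surface, were not called, with ADAM17 at 0.27, 0.16 and 0.27 at adjusted p of 8.61e-05, 0.00205 and 3.64e-05.

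Among the brakes of JAK-STAT signalling, 5 of 8 genes were called lower and 1 higher at 7 days, where 14.4% of all genes were called lower and 16.7% higher, with a median log2 fold change of -0.53 against 0.01 over all genes. SOCS1, a close relative of SOCS3, fell from 3.05 ± 0.716 to 0.565 ± 0.0460 CPM (log2 fold change -2.41, adjusted p = 6.40e-10), and its range at 7 days (0.501 to 0.614 CPM) lay below that of each other group. The value was -2.25 in the model with lane. SOCS1 overlaps RMI2 on the other strand. PTPN2, a phosphatase that acts on JAK and STAT proteins, fell from 51.0 ± 3.13 to 34.5 ± 1.27 CPM (-0.56, adjusted p = 7.30e-10) and was called there as well (-0.64). The calls of PIAS1 (-0.61) and PIAS3 (-0.50), which inhibit DNA binding of STATs, rested on untreated replicate 5, without which they were -0.17 and -0.35 and not called. SOCS2 (-0.58, adjusted p = 0.0231) was not called without untreated replicate 4 (-0.46) or in the model with lane (0.02). PTPN6, the phosphatase SHP-1, was called higher from 2 to 7 counts per untreated library to 9 to 17 counts (1.58, adjusted p = 0.000392), and was -0.29 in the model with lane (adjusted p = 0.791). PTPN6, too, passed the filter on low counts through the 7 days group, so that the 1 brake called higher carries no weight. Without untreated replicate 5, 3 of 8 were called lower and 1 higher, and in the model with lane 4 lower and none higher. SOCS1 was also called lower at 1.5 h (-0.56, adjusted p = 0.0145), which was -0.42 without untreated replicate 4, and no brake was called in the knockdown, where 1 was called lower without untreated replicate 4 and 2 in the model with lane.

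Genes known to respond to STAT3 did not move as 1 group. Of 27 genes on this list 19 could be tested, while the liver acute phase genes FGA, FGB, FGG, CRP, HP, LBP and HAMP, and BATF, could not. At 1.5 h 4 were called higher and none lower, against 2.08% and 1.57% of all genes, and the model with lane gave 4 higher and 1 lower. These were JUNB (1.14, adjusted p = 3.59e-09), the kinase PIM1 (0.64, adjusted p = 7.45e-10), FOS (0.61, adjusted p = 3.80e-07) and CEBPB (0.60, adjusted p = 0.00646). JUNB and FOS are immediate early genes that other pathways induce as well. CEBPB was 0.46 and not called without untreated replicate 5, and FOS was 0.47 and not called in the model with lane. At 7 days 7 were called higher and 2 lower, against 16.7% and 14.4% of all genes. The counts were 8 and 3 without untreated replicate 4, and 8 and 5 in the model with lane. The serum amyloid genes SAA2 (3.47, adjusted p = 1.04e-11) and SAA1 (2.69, adjusted p = 1.73e-10) rose from 3 to 14 and 23 to 53 counts per untreated library to 73 to 124 and 183 to 337 counts. They are near-identical copies that can share reads, so that the split between them is uncertain. LRG1, a secreted glycoprotein, had 1 to 4 counts in untreated libraries and 10 to 18 at 7 days (2.49, adjusted p = 2.28e-07), and this was not called in the model with lane (2.08, adjusted p = 0.0980). LRG1 passed the filter on low counts only through the 7 days group, so that it had to differ there and its call adds nothing to the count of the list. It also overlaps another gene on its own strand. A2M, a protease inhibitor of the acute phase, rose from 53.0 ± 7.71 to 135 ± 12.7 CPM (1.35, adjusted p = 1.60e-09). BCL2L1, TIMP1 and CCND1 were the other 3 called higher, at 1.16, 1.07 and 0.98. BIRC5, which is expressed in dividing cells, fell by 1.27 on the log2 scale (adjusted p = 3.76e-11) and PIM1 by 0.96 (adjusted p = 1.01e-13).

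In the knockdown 4 of the 19 were called lower and none higher, against 7.53% and 5.18% of all genes, and the model with lane gave 6 lower and 1 higher. A2M was at 25.4 ± 4.68 CPM (-1.06, adjusted p = 3.76e-07), opposite in sign to its change at 7 days. PIM1 (-0.85, adjusted p = 7.77e-12), CEBPD (-0.65, adjusted p = 0.00230) and BIRC5 (-0.59, adjusted p = 8.96e-06) were the others, and BIRC5 was -0.17 and not called in the model with lane. PIM1 was thus called higher at 1.5 h and lower in both other groups. SAA1 and SAA2 had 13 to 36 and 6 to 14 counts per knockdown library (-0.56, adjusted p = 0.0826, and 0.31, adjusted p = 0.453).

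**Figure D5:**
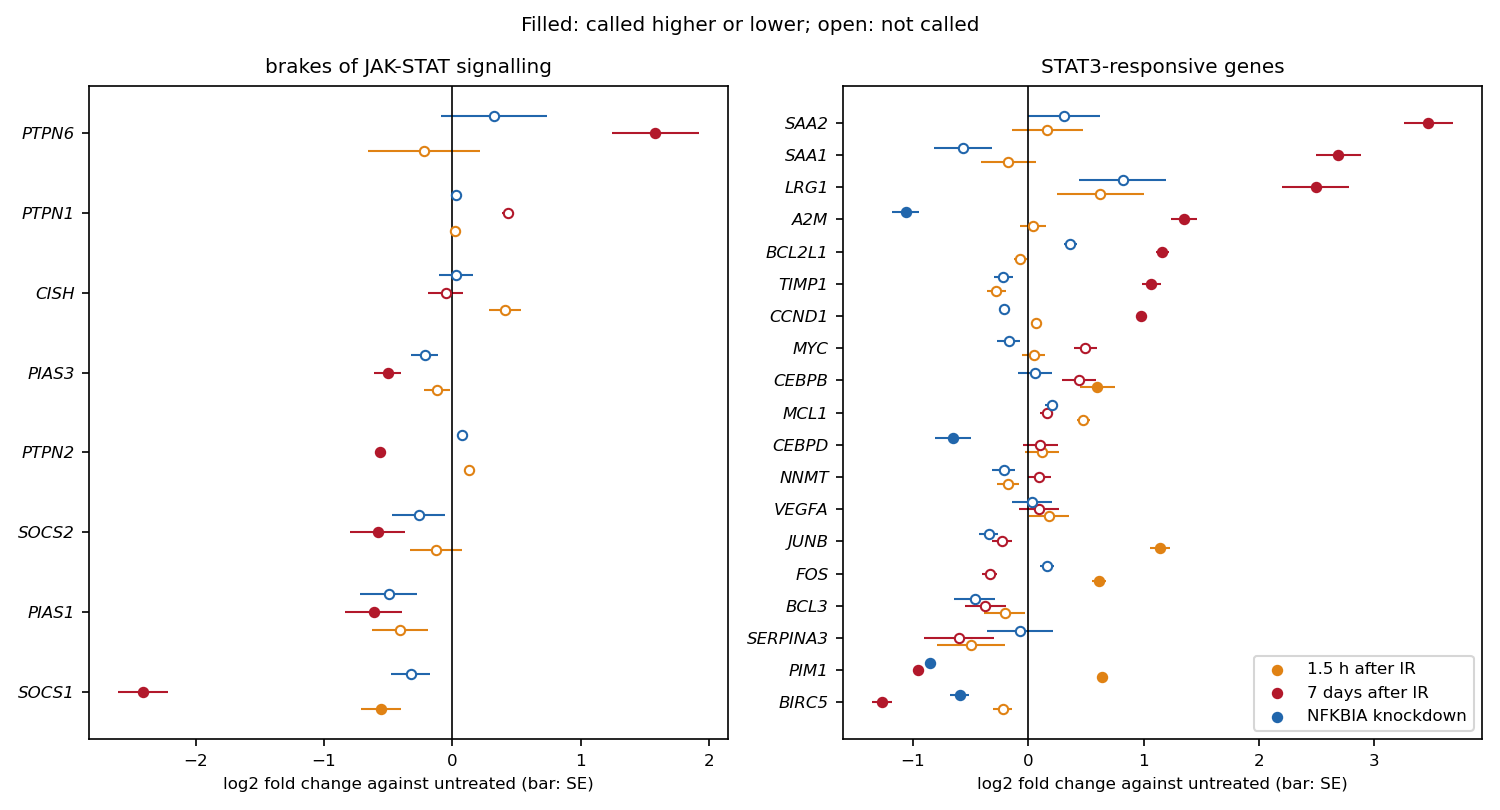
Log2 fold change against untreated libraries (bars are SE, n = 5 per group) for the 8 brakes of JAK-STAT signalling and the 19 tested genes that respond to STAT3; filled points were called and open points were not. SOCS1 at 7 days (-2.41) and SAA2 at 7 days (3.47) are at the ends of the 2 panels, and PIM1 lies on opposite sides of 0 at 1.5 h and 7 days.

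Of 10 regulators of IL6 transcription or mRNA stability, 2 were called higher at 1.5 h, 2 higher and 1 lower at 7 days, and 1 lower in the knockdown. Over all genes 2.08% were called higher at 1.5 h, 16.7% higher and 14.4% lower at 7 days, and 7.53% lower in the knockdown. The counts differed in the model with lane, with 1 higher and 3 lower at 1.5 h, 1 higher and 4 lower at 7 days, and none higher and 7 lower in the knockdown. ZC3H12A, an RNase that degrades IL6 mRNA, rose from 19.4 ± 2.35 CPM to 35.6 ± 1.77 CPM at 1.5 h (0.88, adjusted p = 2.01e-08) and 32.0 ± 3.23 CPM at 7 days (0.73, adjusted p = 2.56e-08). The model with lane gave 0.62 and 0.41, the latter not called. NFKBIZ, a nuclear IκB protein needed for IL6 induction, rose from 25.0 ± 4.78 CPM to 56.7 ± 3.64 CPM at 7 days (1.19, adjusted p = 4.11e-10), and was 0.53 at 1.5 h (adjusted p = 0.000285) and -0.34 in the knockdown (adjusted p = 0.00670, not called). The early call was lost without untreated replicate 4 (0.45) and in the model with lane (0.10), which gave 0.63 at 7 days. HNRNPD, the AU-rich element binding protein AUF1, fell from 388 ± 51.0 to 185 ± 3.77 CPM at 7 days (log2 fold change -1.07, adjusted p = 8.99e-12). ZFP36L1, which promotes decay of AU-rich mRNAs, was called lower in the knockdown (-0.75, adjusted p = 0.0278), and was -0.17 and not called without untreated replicate 5. Its untreated libraries spanned 411 to 1684 CPM. RELA and NFKB1, the NF-κB subunits p65 and p50, were not called in any of the 3 comparisons with untreated cells.

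The genes whose log2 CPM followed the ligands most closely over the 20 libraries were named by Pearson's r, which describes the group means as much as the spread within groups. For IL6 they were DACT3 (r = 0.93), HS3ST4 (0.92) and SLAMF9 (0.92). SLAMF9 averaged 0.145 CPM without treatment, 0.129 CPM at 1.5 h, 0.138 CPM in the knockdown and 1.76 CPM at 7 days. IL6 averaged 0.317 CPM without treatment and 1.77 CPM at 7 days. For IL11 they were TIGAR (0.95), COQ10B (0.95) and CDKN1A (0.94), of which CDKN1A, the p53 target p21, had mean levels of 225 CPM without treatment, 690 and 816 CPM at the early and late times, and 260 CPM with knockdown. For LIF they were ADSSL1 (0.98), FLNC (0.98) and IL4R (0.97), and IL4R, a receptor chain of another cytokine, was at 22.4 CPM in untreated cells and 35.6 CPM at 7 days. ADSSL1 averaged 0.419 CPM at 7 days, and 0.0679, 0.0664 and 0.0370 CPM in untreated cells, at 1.5 h and in the knockdown. SLAMF9 and ADSSL1 passed the filter on low counts through the 7 days group, where they were high, so that their r carries no weight.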

How the data were processed

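Stranded mRNA libraries of U2-OS cells were sequenced by the authors as single reads, 5 libraries in each of 4 groups. Per the submitters' processing notes, bcl2fastq, Trimmomatic, STAR 2.4.2a and the build hg19 were used. The counting tool, annotation and strand setting are not given in the sources used here, so counts of overlapping genes and paralogs can include reads of each other. The authors deposited raw whole-number counts for 20314 genes with a symbol and a length, and no column belonged to other samples. The study calls the 5 libraries of a group biological replicates, and the p values measure the spread between them.

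The test was edgeR 4.0.16 in R 4.3.3. Low genes were removed by filterByExpr (minimum count 10, 14992 genes tested) and libraries scaled by TMM. All 20 libraries entered 1 quasi-likelihood model that had only the group as a term, with Benjamini-Hochberg adjustment over all genes tested. A gene was called at an adjusted p under 0.05 and a log2 fold change beyond 0.5 either way. The SE and 95% intervals came from the F statistic. Log2 CPM used a prior count of 2. Exact two-sided permutation tests were made with scipy 1.17.1. The test was tried on simulated data with known changes. Figures were drawn with matplotlib 3.10.9. Gene overlaps came from GENCODE 29 and promoter windows from RefSeq, both on GRCh38, and no coordinates of the files' build are given.

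The genes and lists were chosen with earlier results of these data known. Named were all 10 genes, NFKBIA, up to 4 called genes per list and comparison (largest first), and for IL6, IL11 and LIF the 3 genes with the highest r. Other list genes, and markers, were named after their values were seen. Alternatives were RLE and upper-quartile factors, library size alone, 2 other filters, DESeq2 1.42.0, restriction to the pair of groups, replicate number or lane as a model term, Bonferroni correction, other fold thresholds, lane 4 alone and each library left out. Fits within lanes 3 and 5, the ratios, and the pathway lists without untreated replicate 4 or 5 or with the lane as a factor were added after seeing the data. Single genes of the lists that are withheld are not reported here.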

Additional observations from a re-analysis of the deposited data

Results flagged for a closer look

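Within a group of 5 libraries, the most extreme library was far from the others, by Dixon's criterion, in 5 of 40 sets of a gene and a group, where chance alone flags about 1 in 20. IL6 was at 2.404 CPM and IL6R at 5.57 CPM in replicate 4 of the 7 days group, in both cases the highest library of the group. IL6ST was at 283 CPM in replicate 1 of the 1.5 h group, the lowest there. LIFR was at 66.9 CPM in untreated replicate 4, and SOCS3 at 54.9 CPM in untreated replicate 5, both the lowest of their group. The effect of irradiation differed between 7 days and 1.5 h, tested as the direct contrast of the 2 times, for IL6 (by 2.74 on the log2 scale), IL6R (0.93), CLCF1 (-0.85) and SOCS3 (-0.79), each with all 5 libraries of one time apart from the 5 of the other.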

How the results depend on the processing

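Of the counts of called genes among the 10, those under other scalings, filters, DESeq2 (2, 5, 1, 4 and 4 in the order 1.5 h, 7 days and knockdown against untreated, 7 days against 1.5 h and against knockdown) and a fit of only the groups compared stayed within 1.5 times. With the replicate block the counts were 2 and 5 for the 1.5 h and 7 days comparisons. The replicate numbers share only a number (correlations of -0.25 to 0.12, at most 1 of 5 pairs over 0.1). With no threshold on the fold change the counts were 6, 9, 4, 8 and 9, and with a threshold of 1 they were 0 at 1.5 h, 0 in the knockdown, 1 for 7 days against 1.5 h and 2 against the knockdown. With Bonferroni correction no gene was called in the knockdown. With the lane as a factor 1 was called at 1.5 h. Lane 3 alone also gave 1, but with 1 untreated library, assumed to vary like the others, this is no test of the early change. Leaving out single libraries gave 0 to 1 in the knockdown. IL6 had no value with at least 10 counts in every library.

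Some signs turned. With library size alone these were LIFR at 7 days (0.00892) and LIF in the knockdown (0.0179). With the lane as a factor they were LIF (-0.13), IL6R (-0.14) and OSMR (-0.14) at 1.5 h, and IL6ST (-0.20), LIFR (-0.0253), OSMR (-0.19) and SOCS3 (0.37) in the knockdown. In lane 3 they were LIF (-0.14), IL6R (-0.15) and OSMR (-0.15). Without 1 library, IL6 ranged from -0.34 to 0.28 at 1.5 h and from -0.41 to 0.24 in the knockdown, LIF and OSMR at 1.5 h from -0.0239 to 0.0677 and from -0.0347 to 0.127, and IL6ST and OSMR in the knockdown from -0.00135 to 0.172 and from -0.00737 to 0.166, the last 4 lowest without untreated replicate 4. The log2 ratio of IL6R to IL6ST at 1.5 h ranged from -0.13 to 0.0112. The cause was not tested. CLCF1 against the knockdown was called without 7 days replicate 2 (-0.51), and IL6R against the knockdown was lost with Bonferroni correction (adjusted p = 0.0754). At the depth of these libraries IL6 limits what can be seen outside the 7 days group.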
